A study of Mus musculus with 33 samples.

Results

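Amino acid transporter genes were followed in P19, an embryonal carcinoma cell line of the mouse that can be steered towards neural or mesodermal fates. The genes are all those whose symbol is Slc1a, Slc3a, Slc6a, Slc7a, Slc36a, Slc38a or Slc43a followed by a number. Of 63 such symbols in the mouse name table, 37 were measured among 14717 genes in all: 5 of 7 in Slc1a, 1 of 2 in Slc3a, 9 of 21 in Slc6a, 8 of 15 in Slc7a, 2 of 4 in Slc36a, 9 of 11 in Slc38a and 3 of 3 in Slc43a. The other 26 were not analysed here. RNA was sequenced from 15 libraries, 3 for each of 5 groups. D0 was undifferentiated cells, grown in medium with 10% charcoal-stripped serum. D3RA and D6RA were cells at days 3 and 6 of differentiation with 1 µM all-trans retinoic acid (RA), and D3DMSO and D6DMSO were cells at the same days with 1% dimethyl sulfoxide (DMSO). Both treatments were given during an aggregation step in which the cells formed embryoid bodies, after which they were moved to culture flasks in maintenance medium, so that the differentiated groups share a change of culture that D0 did not have. All groups come from 1 cell line with no genetic change named in the labels, and each library is a mixture of whatever cells were in the dish.

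Cells take up amino acids through membrane carriers that are named by family. The Slc3a2 glycoprotein is a heavy chain that brings its partner light chains of the Slc7a family to the cell surface, where they exchange large neutral or cationic amino acids or cystine. Slc1a and Slc38a carriers use the sodium gradient to bring in glutamate, glutamine, alanine, serine and cysteine, and Slc6a carriers take up neurotransmitters such as GABA and glycine along with taurine and creatine. Uptake feeds protein synthesis and the growth kinase mTORC1. When amino acids run short, the transcription factor ATF4 is known to raise several of these carriers through a promoter element with the core TGATGNAA.

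Promoter windows from RefSeq (250 bases before to 50 after a transcript start, GRCm38.p6) were searched for that core, written TGATGNAA, on both strands. A promoter was matched for 26 of the 37 members, and 3 of these 26 held a match, which is 11.5%, against 4.51% of all 27025 genes with a promoter. The 3 were Slc7a11, the light chain that exchanges cystine for glutamate, Slc1a4, a carrier of small neutral amino acids, and Slc7a7, a light chain that exchanges cationic for neutral amino acids. They are shown because they are all the members that held a match. Each sequence reads 5′ to 3′ on the gene's strand, with the matched letters in capitals. In Slc7a11 the core stood on the forward strand from 66 bases before the start and on the reverse strand from 47 bases before it. The Slc1a4 match began 4 bases before the start and ran across it. In Slc7a7, 1 match began 141 bases and another 1 base before the start used here. Slc7a7 has another annotated start further downstream, and the latter match began 243 bases before that one. A match is a description of the letters and not evidence of binding.
Slc7a11, 250 bases before the start, minus strand, chr3:50443614-50443863: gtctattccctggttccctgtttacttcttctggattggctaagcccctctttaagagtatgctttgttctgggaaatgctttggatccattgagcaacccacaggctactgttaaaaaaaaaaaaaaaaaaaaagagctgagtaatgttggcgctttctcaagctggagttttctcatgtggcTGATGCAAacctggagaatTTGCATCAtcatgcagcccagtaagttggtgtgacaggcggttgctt
Slc1a4, 30 bases around the match, minus strand, chr11:20332699-20332728: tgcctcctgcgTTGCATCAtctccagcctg
Slc7a7, 30 bases around the upstream match, minus strand, chr14:54418067-54418096: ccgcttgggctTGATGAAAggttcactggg
Slc7a7, 30 bases around the match at the start, minus strand, chr14:54417927-54417956: gacctagaagcTGATGCAAcagcttccccg

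Libraries held 3.55 to 9.88 M counts in D0, D3DMSO and D3RA and 38.24 to 49.64 M at day 6. The 11 mitochondrial genes had 0 counts in every D0 and day 3 library but 41.6% to 55.8% of counts at day 6. Day therefore cannot be told apart from a difference in how the libraries were made or processed, and changes from day 3 to day 6 are given by counts of genes only. Where levels of day 6 stand beside those of earlier days, their order is a description and carries that difference too. After scaling, 3 libraries stood apart in depth, with sizes under 5 M: D3DMSO 2, D3RA 2 and D3RA 3. In these, 4 genes (Lars2, Gm15564 and 2 without a symbol) took 32.81%, 39.47% and 45.73% of non-mitochondrial counts, against 0.53% to 24.03% in the other 12. Of the marker lists, summed pluripotency markers were 2654 to 3005 counts per M counts of the scaled library (CPM) in D0, mesoderm markers 1287 to 1454 CPM in D3DMSO and neuron markers 3365 to 3592 CPM in D6RA, each above the other groups. Endothelial markers turned their order between the days, at 187 to 258 CPM in D3RA against 57.9 to 86.8 in D3DMSO, and 25.8 to 35.5 in D6RA against 198 to 224 in D6DMSO. Groups were compared with limma on the log2 values of all genes, and a gene was called when its Benjamini-Hochberg adjusted p was under 0.05. Levels below are CPM, as mean ± SD of 3 libraries. Fold changes are ratios of mean CPM unless given as log2 or as pooled counts, which are counts over a group divided by its summed library sizes. In such bulk samples, fewer cells of a type and less RNA per cell cannot be told apart.

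By day 3 more transporter genes rose than fell with DMSO, and more fell than rose with RA. From D0 to D3DMSO, 17 of the 37 members rose and 10 fell, in all 73.0% of them, against 56.1% of all genes called (28.2% higher, 27.8% lower). The libraries of these groups did not overlap for 26 members, against 58.8% of all genes. From D0 to D3RA, 8 rose and 18 fell, 70.3% of them, against 68.9% of all genes (35.0% higher, 33.9% lower). There the libraries did not overlap for 28 members, against 68.2% of all genes. The members' median log2 change was 0.3 in D3DMSO and -0.32 in D3RA, with 0.02 and 0.01 over all genes. These comparisons share the D0 libraries. Set against each other directly, D3RA was lower than D3DMSO for 17 members and higher for 5, 59.5% of members against 62.1% of all genes called. The share of members called was thus near the background, while its direction was uneven, since 31.4% of all genes were called lower and 30.7% higher. A difference of at least 2-fold was called for 10 members lower and 3 higher in D3RA, against 12.9% of all genes lower and 11.9% higher. The libraries of D3RA and D3DMSO did not overlap for 21 members, against 58.5% of all genes. Without the 3 shallow libraries, 14 members were lower and 4 higher, but D3RA is then 1 library, assumed to vary like the other groups, as in every value given without them.

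By day 6 the direction was balanced. Between D6RA and D6DMSO, 14 members were higher and 12 lower with RA, 70.3% of members against 65.8% of all genes (32.6% higher, 33.1% lower), and the members' median log2 difference was -0.02, as it was over all genes. Quantile normalization turned this near-even split to 13 higher and 15 lower. All genes moved likewise: 49.6% of all called genes were higher in the main fit and 43.3% under quantile normalization, against 53.8% and 46.4% of called members. Differences of at least 2-fold were called for 8 higher and 9 lower, against 14.9% and 14.8% of all genes, and the libraries did not overlap for 30 members, against 80.3% of all genes. From D3RA to D6RA, 27 members were called higher and 8 lower, against 69.3% of all genes called (37.2% higher, 32.0% lower). From D3DMSO to D6DMSO, 14 were higher and 7 lower, against 56.4% (28.3% higher, 28.1% lower). The summed level of the 37 members was 2237 ± 89.8 CPM in D0, 2887 ± 254.1 in D3DMSO, 1756 ± 21.6 in D3RA, 3388 ± 196.6 in D6DMSO and 3677 ± 14.0 in D6RA. By mean level, 15 members were lowest in D3RA and none was highest there, while 16 were highest in D6RA and 11 in D6DMSO. The like shares over all genes were not counted, so this describes the members and does not set them apart. Both the sums and these counts carry whatever differed between the day 3 and day 6 libraries in how they were made.

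**Figure D1:**
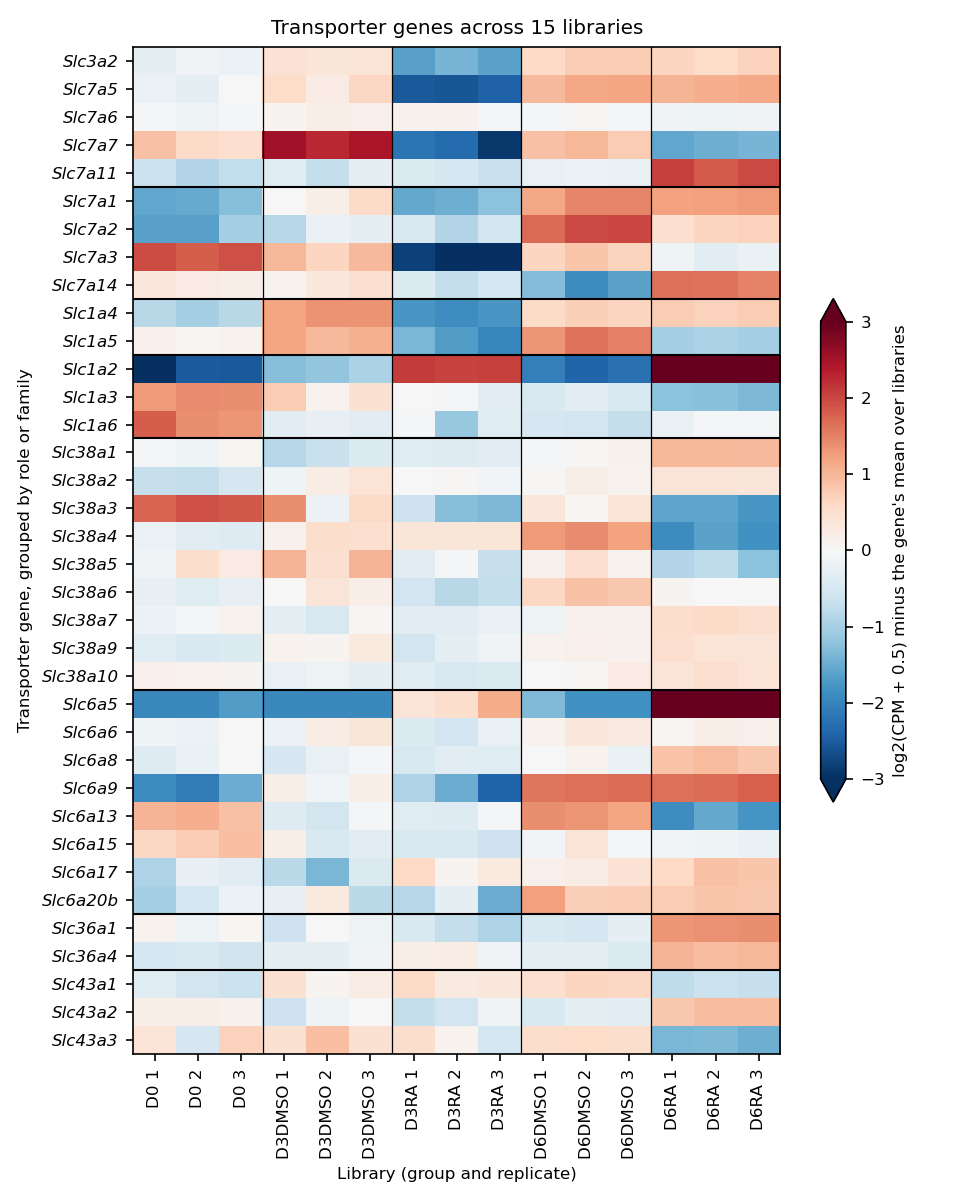
Heat map of 36 of the 37 transporter genes (rows, grouped by role or family) in the 15 libraries (columns). Colour is log2(CPM + 0.5) minus the gene's mean over libraries, limited to 3 in either direction. Slc3a2, Slc7a5, Slc7a7, Slc7a3, Slc1a4 and Slc1a5 are blue in all 3 D3RA libraries, and Slc1a2 and Slc6a5 are deep red in D6RA.

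The heavy chain and its large neutral partner both fell in day 3 RA cells and did not differ by the test between treatments at day 6. Slc3a2, the heavy chain, was at 142.2, 159.9 and 152.5 CPM in D0, 233.5, 220.2 and 224.1 in D3DMSO and 55.7, 65.1 and 56.6 in D3RA. By day 6 the values were 263.1, 288.1 and 293.9 CPM with DMSO and 271.2, 252.5 and 278.7 with RA. The 3 groups of days 0 and 3 did not overlap, with D3DMSO highest, and the day 6 treatments did overlap. Relative to D0, Slc3a2 rose 1.49-fold in D3DMSO (log2 0.58 ± 0.07 SE, limma adjusted p = 5.31e-06) and was 2.56-fold lower in D3RA (log2 -1.36, adjusted p = 9.12e-11). D3RA was 3.82-fold below D3DMSO (log2 -1.93, adjusted p = 1.59e-12). At day 6 the log2 difference of -0.07 ± 0.07 SE did not pass (adjusted p = 0.394). Under quantile normalization it did, at log2 -0.2 (adjusted p = 0.0294).

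Slc7a5, the light chain that brings in leucine and other large neutral amino acids, was at 121.2, 111.3 and 135.5 CPM in D0, 198.8, 161.1 and 210.4 in D3DMSO and 23.5, 22.8 and 25.1 in D3RA. Day 6 values were 268.4, 307.8 and 309.4 CPM with DMSO and 278.3, 290.3 and 302.0 with RA. The D3RA libraries were below all others, and the day 6 treatments overlapped. Slc7a5 rose 1.55-fold from D0 to D3DMSO (log2 0.63 ± 0.1 SE, limma adjusted p = 3.7e-05). It fell to 23.8 ± 1.19 CPM in D3RA, 5.15-fold below D0 (adjusted p = 2.94e-12) and 7.99-fold below D3DMSO (log2 -2.98 ± 0.1, adjusted p = 2.33e-13). The day 6 difference was log2 -0.02 ± 0.1 (adjusted p = 0.852).

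Slc7a7, the light chain that moves cationic amino acids out in exchange for neutral ones, was at 19.1, 15.3 and 14.5 CPM in D0, 60.2, 50.1 and 57.0 in D3DMSO and 1.82, 1.63 and 0.914 in D3RA. It was at 18.8, 20.5 and 17.4 CPM in D6DMSO and 3.08, 3.36 and 3.54 in D6RA. Both RA groups were below every DMSO library, and D3DMSO was above every other library. Of all 37 members it had the lowest log2 difference between D3RA and D3DMSO, at -5.15 ± 0.18 SE, or 38.3-fold (limma adjusted p = 4.86e-13). The D3RA value rests on 27 counts over 3 libraries. At day 6 it was 5.69-fold lower with RA (log2 -2.5 ± 0.18, adjusted p = 1.71e-09). Against D0 it rose 3.43-fold in D3DMSO (adjusted p = 3.12e-07) and was 11.2-fold lower in D3RA (adjusted p = 5.57e-11).

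Slc7a11, the cystine light chain whose promoter is printed above, stood at 27.3, 23.0 and 25.3 CPM in D0, 32.9, 25.7 and 35.0 in D3DMSO and 31.5, 29.3 and 26.5 in D3RA. In the day 6 libraries it was at 36.4, 37.9 and 36.5 CPM with DMSO and 178.1, 154.0 and 169.5 with RA. The 3 earlier groups overlapped, and every D6RA library was above every other. The rise in D6RA over D6DMSO was 4.52-fold (log2 2.17 ± 0.11 SE, limma adjusted p = 1.82e-11). D3RA and D3DMSO did not differ by the test (log2 -0.09 ± 0.11, adjusted p = 0.505). From D0 to D3DMSO it was called higher (log2 0.3, adjusted p = 0.0265), but not after removal of D0 replicate 2 (adjusted p = 0.115), D0 replicate 3 (0.0512), D3DMSO replicate 1 (0.0815) or D3DMSO replicate 3 (0.128). Slc7a6, a close relative of Slc7a7, lay between 99.2 and 127.9 CPM in all 15 libraries and differed between treatments by the test at neither day (adjusted p = 0.364 and 0.181).

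**Figure D2:**
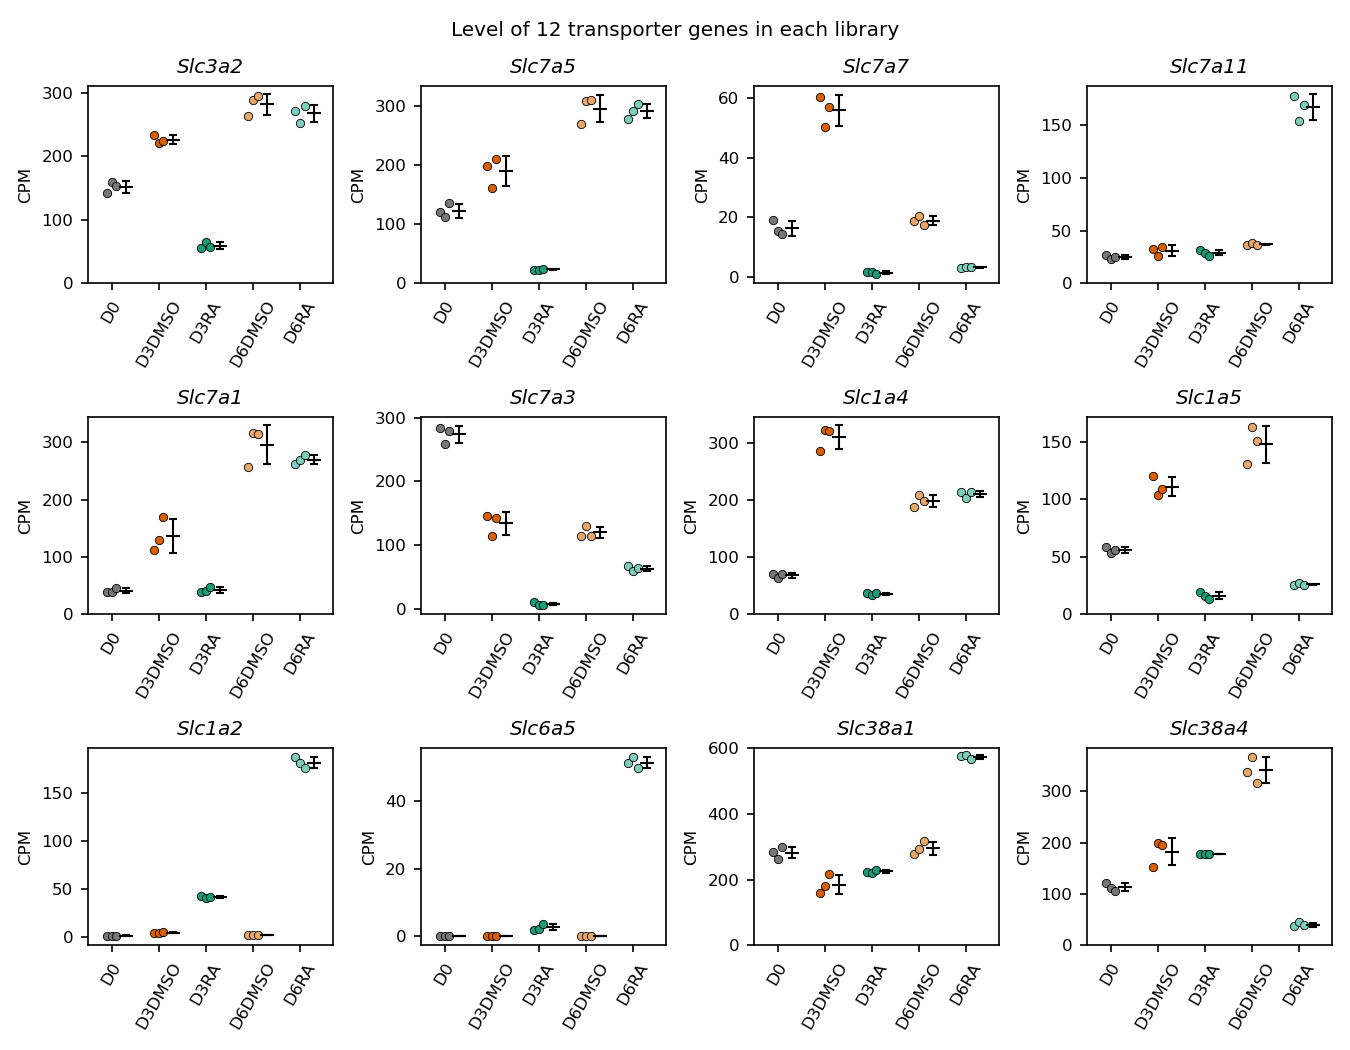
Level in CPM (y axis, linear) of 12 transporter genes in each library (points) by group (x axis), with the mean and SD of 3 libraries as a bar. Slc3a2, Slc7a5, Slc7a1 and Slc1a4 are low in D3RA and at like levels in D6DMSO and D6RA, while Slc7a11, Slc1a2, Slc6a5 and Slc38a1 are highest in D6RA and Slc38a4 is lowest there.

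The cationic carriers, which bring in arginine and lysine, did not share a pattern. Slc7a1, the widely expressed arginine carrier, was at 38.6, 39.6 and 46.6 CPM in D0, 112.3, 129.7 and 170.4 in D3DMSO and 38.9, 40.7 and 48.4 in D3RA. Its day 6 levels were 257.1, 315.6 and 315.3 CPM with DMSO and 262.0, 269.1 and 278.5 with RA. D3DMSO was above both D0 and D3RA, which overlapped each other. The rise to D3DMSO was 3.3-fold (log2 1.71 ± 0.13 SE, limma adjusted p = 1.48e-08), and D3RA was 3.22-fold below D3DMSO (log2 -1.67, adjusted p = 9.16e-09). D3RA did not differ from D0 by the test (log2 0.04 ± 0.13, adjusted p = 0.807), nor did D6RA from D6DMSO (log2 -0.13 ± 0.13, adjusted p = 0.405).

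Slc7a3, a cationic carrier best known from brain and embryo, fell from D0 in both day 3 groups, unlike Slc7a1. Like Slc7a1, Slc7a3 was lower in D3RA than in D3DMSO. It was at 283.5, 258.7 and 279.6 CPM in D0, 146.0, 113.5 and 142.5 in D3DMSO and 9.93, 5.86 and 5.94 in D3RA. The day 6 values were 113.8, 130.4 and 114.8 CPM with DMSO and 66.4, 58.6 and 63.4 with RA. D0 was above every other library and D3RA below every other. Slc7a3 fell 2.04-fold from D0 in D3DMSO (log2 -1.04 ± 0.15 SE, limma adjusted p = 1.72e-05) and 37.8-fold in D3RA (log2 -5.25, adjusted p = 3.89e-14), the lowest log2 change of the 37 members in that comparison. D3RA was 18.5-fold below D3DMSO (log2 -4.21, adjusted p = 6.54e-13), and D6RA 1.91-fold below D6DMSO (log2 -0.93, adjusted p = 3.24e-05). Summed pluripotency markers moved with it in D0, D3DMSO and D3RA, at 2654 to 3005, 1101 to 1608 and 193 to 221 CPM, but were 490 to 505 CPM in D6DMSO and 193 to 212 CPM in D6RA. These sums hide a split among the 8 measured markers. With RA, 2 were called higher and 5 lower at day 3, and 2 higher and 6 lower at day 6. From D3RA to D6RA, 0 were called higher and 6 lower, although the sums were alike. The part of pluripotent cells in the Slc7a3 result was not tested.

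Slc7a2, the third carrier of this kind, was at 2.13 ± 0.69 CPM in D0, 4.66 ± 1.18 in D3DMSO and 3.97 ± 0.659 in D3RA. Both rises over D0 passed (limma adjusted p = 0.00051 and 0.00151). In D6DMSO it stood at 25.2 ± 2.84 CPM, 2.52-fold above D6RA (adjusted p = 6.7e-05). Slc7a14, a relative of these carriers, was at 3.87, 4.52 and 5.11 CPM in D3DMSO and 2.55, 1.95 and 2.28 in D3RA, with D0 at 4.51, 4.25 and 4.16. It was at 1.14, 0.588 and 0.831 CPM in D6DMSO and 12.2, 11.9 and 10.9 in D6RA. Its order between treatments was thus opposite at the 2 days, with no overlap at either. RA cells were 1.99-fold lower at day 3 (log2 -0.92 ± 0.23 SE, limma adjusted p = 0.00216) and 13.6-fold higher at day 6 (log2 3.78 ± 0.23, adjusted p = 2.3e-10). Without the 3 shallow libraries, with 1 D3RA library left, the day 3 value was log2 -0.8 and did not pass (adjusted p = 0.0581). The fall from D0 to D3RA (log2 -0.86, adjusted p = 0.00306) was then log2 -0.75 and did not pass either (0.0512).

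The 2 neutral exchangers of the Slc1a family rose in D3DMSO and fell in D3RA, but parted at day 6. Slc1a4, a serine, alanine and cysteine carrier, was at 71.3, 63.2 and 70.9 CPM in D0, 285.7, 321.6 and 320.8 in D3DMSO and 37.3, 34.2 and 37.5 in D3RA. Day 6 libraries had 187.0, 208.9 and 198.6 CPM with DMSO and 214.4, 203.5 and 213.1 with RA. D3DMSO was above every other library and D3RA below every other. Relative to D0 it rose 4.52-fold in D3DMSO (log2 2.17 ± 0.07 SE, limma adjusted p = 8.8e-13) and fell 1.88-fold in D3RA (adjusted p = 8.67e-09). The 8.52-fold gap between D3RA and D3DMSO (log2 -3.08 ± 0.07, adjusted p = 5.24e-15) had the lowest adjusted p of the 37 members in that comparison. At day 6 the log2 difference was 0.09 ± 0.07 (adjusted p = 0.302).

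Slc1a5, the main glutamine exchanger of growing cells, was at 58.4, 53.3 and 56.2 CPM in D0, 120.1, 103.7 and 109.4 in D3DMSO and 19.8, 16.0 and 13.2 in D3RA. At day 6 it was at 130.8, 162.7 and 150.7 CPM with DMSO and 25.7, 27.0 and 25.8 with RA. Both RA groups were below every D0 and DMSO library. It rose 1.99-fold from D0 to D3DMSO (limma adjusted p = 1.8e-06), and D3RA was 3.43-fold below D0 (adjusted p = 6.42e-10). RA cells were 6.8-fold below DMSO cells at day 3 (log2 -2.77 ± 0.11 SE, adjusted p = 3.99e-12) and 5.66-fold below at day 6 (log2 -2.49 ± 0.11, adjusted p = 6.67e-12). The difference between the days, log2 0.28 ± 0.16, did not pass (adjusted p = 0.173), although it did without D3RA replicate 1 (log2 0.42, adjusted p = 0.022).

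The glutamate carriers, which clear this transmitter from around neurons in the brain, were led by Slc1a2, the chief carrier of astrocytes. It was at 0.308, 1.26 and 1.23 CPM in D0, 3.59, 3.9 and 4.65 in D3DMSO and 42.3, 40.4 and 41.1 in D3RA. By day 6 the values were 1.89, 1.39 and 1.62 CPM with DMSO and 187.7, 181.1 and 176.2 with RA. Each RA group was above every library of D0 and DMSO. The RA cells were 10.2-fold above DMSO cells at day 3 (log2 3.33 ± 0.34 SE, limma adjusted p = 2.56e-07) and 111.4-fold above at day 6 (log2 6.79 ± 0.34, adjusted p = 1.9e-11). From D0 it rose in D3DMSO (log2 2.27, adjusted p = 2.65e-05) and in D3RA (log2 5.61, adjusted p = 3.02e-10). D0 replicate 1 weighed on both, and without it they were log2 1.65 and 4.99. Summed glial markers (5 of 10 listed were measured) were 23.3 to 27.0 CPM in D3RA, below the 59.5 to 68.8 CPM of D3DMSO, and 51.0 to 54.7 CPM in D6RA, above the 31.2 to 32.8 CPM of D6DMSO. The sum hides a split at day 6, where 1 glial marker was called higher with RA and 2 lower (median log2 -0.41). At day 3, 0 were called higher and 5 lower. Summed neuron markers were 859 to 1083 CPM in D3RA, 136 to 181 in D3DMSO and 34.7 to 40.4 in D6DMSO. Summed neural progenitor markers (8 of 10 measured) were 1005 to 1124 CPM in D3RA against 177 to 209 in D3DMSO, and 1346 to 1371 in D6RA against 164 to 183 in D6DMSO, with 8 of 8 called higher with RA at each day. The part of these cell types in the Slc1a2 result was not tested.

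Slc1a3, the glutamate carrier of radial glia and astrocytes, was highest in undifferentiated cells, at 100.2, 109.1 and 108.5 CPM. It was at 70.1, 44.1 and 56.7 CPM in D3DMSO, 41.3, 39.4 and 32.9 in D3RA, 29.5, 32.0 and 29.7 in D6DMSO and 17.2, 16.7 and 15.8 in D6RA. No libraries overlapped between treatments at either day. RA cells were 1.5-fold lower at day 3 (log2 -0.57 ± 0.13 SE, limma adjusted p = 0.00102) and 1.83-fold lower at day 6 (log2 -0.87 ± 0.13, adjusted p = 1.24e-05), and both day 3 groups were below D0 (log2 -0.92 in D3DMSO and -1.48 in D3RA, adjusted p = 1.3e-05 and 2.39e-08). Slc1a6, a glutamate carrier known from cerebellar neurons, was at 5.95, 4.25 and 4.07 CPM in D0, 0.967, 1.03 and 0.929 in D3DMSO and 1.28, 0.326 and 0.914 in D3RA. It fell 4.88-fold and 5.67-fold from D0 (adjusted p = 6.44e-05 and 1.36e-05). Day 6 values were 0.789, 0.714 and 0.613 CPM with DMSO and 1.09, 1.27 and 1.25 with RA, with no overlap, and the log2 difference of 0.75 ± 0.35 did not pass (adjusted p = 0.0704). It passed in 4 alternatives, among them voom weights (adjusted p = 0.0134).

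**Figure D3:**
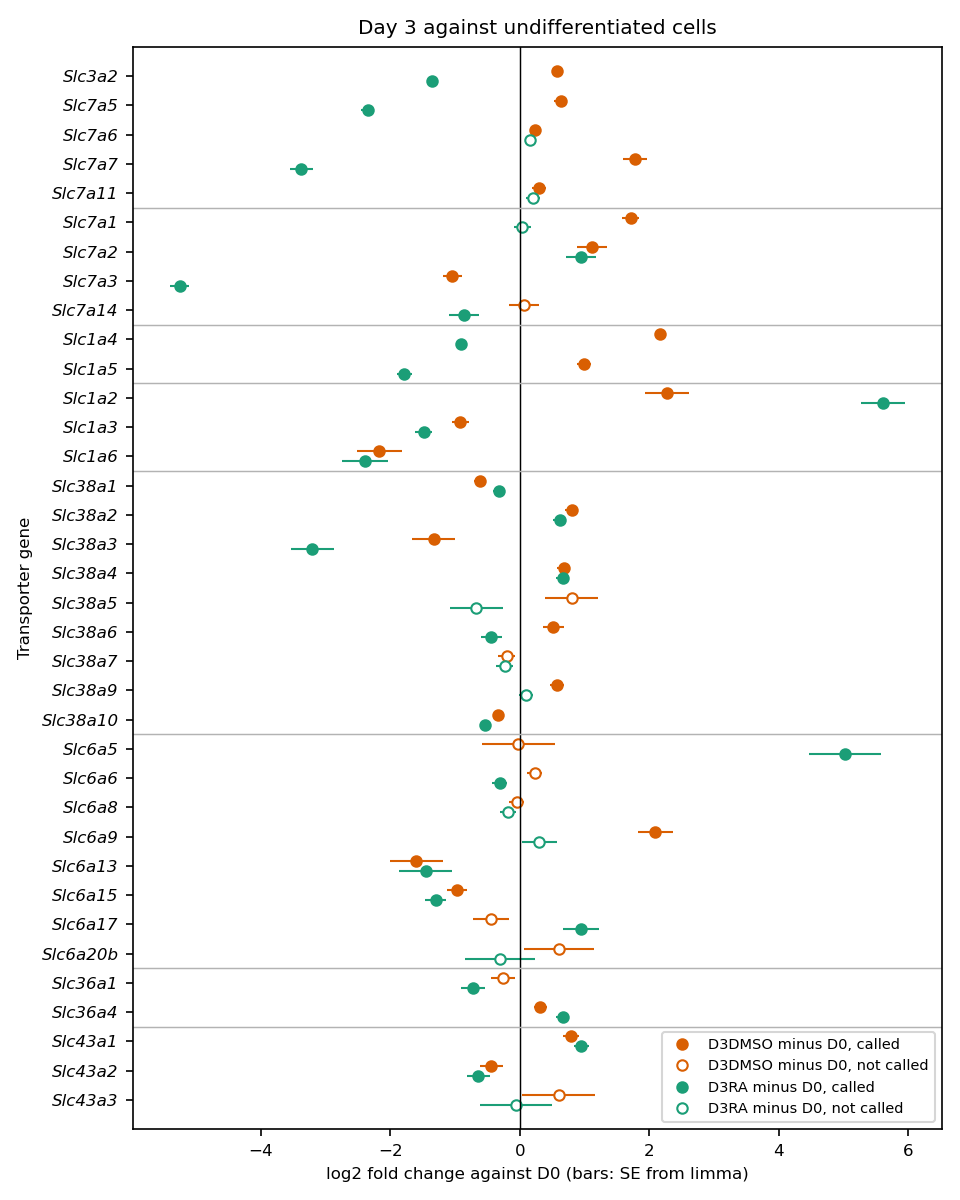
Log2 fold change against D0 (x axis) of 36 of the 37 transporter genes (y axis) in D3DMSO (orange) and D3RA (green), with the SE from limma as bars. Filled points were called at an adjusted p under 0.05. The green points of Slc3a2, Slc7a5, Slc7a7, Slc1a4 and Slc1a5 lie left of 0 and the orange points right of 0. Both sets of points use the same D0 libraries.

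Among the Slc38a carriers, which bring in glutamine and alanine with sodium, 3 genes lie side by side on chromosome 15 with 0 protein-coding genes between neighbours in the RefSeq annotation: Slc38a1, Slc38a2 and Slc38a4. At day 6 Slc38a1 and Slc38a2 were called higher with RA and Slc38a4 lower, though the Slc38a2 call was lost on removal of single libraries. Slc38a1, the glutamine carrier of many neurons, was at 283.3, 264.7 and 300.3 CPM in D0, 158.9, 180.0 and 217.2 in D3DMSO, 223.9, 221.8 and 230.7 in D3RA, 277.3, 293.0 and 316.7 in D6DMSO and 577.0, 578.6 and 568.4 in D6RA. Every D6RA library was above all others, 1.94-fold over D6DMSO (log2 0.96 ± 0.09 SE, limma adjusted p = 6.44e-08). The fall from D0 to D3DMSO was log2 -0.62 (adjusted p = 2.16e-05). D3RA stood log2 0.29 above D3DMSO (adjusted p = 0.0095), a call that was lost without D3DMSO replicate 1 (adjusted p = 0.0565), with 1 D3RA library left after removing the 3 shallow libraries (log2 0.27, adjusted p = 0.146) and under quantile normalization (0.059). The fall from D0 to D3RA (log2 -0.32, adjusted p = 0.00436) was log2 -0.33 with that 1 D3RA library and did not pass (0.0525).

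Slc38a4, an imprinted carrier of placenta and liver, was at 122.3, 111.8 and 106.2 CPM in D0, 152.2, 199.1 and 195.6 in D3DMSO, 178.7, 178.2 and 178.1 in D3RA, 338.4, 368.1 and 317.3 in D6DMSO and 37.2, 44.8 and 39.2 in D6RA. D6DMSO was above and D6RA below every other library. The gap was 8.44-fold (log2 -3.08 ± 0.1 SE, limma adjusted p = 6.86e-14). At day 3 the treatments overlapped and the log2 difference was -0.02 ± 0.1 (adjusted p = 0.868), both groups having risen over D0 (log2 0.68 and 0.66, adjusted p = 2.08e-05 and 1.64e-05). Summed cardiac muscle markers were 114 to 193 CPM in D6DMSO and 12.4 to 14.0 in D6RA, and endothelial markers 198 to 224 and 25.8 to 35.5 CPM. At day 3, where Slc38a4 overlapped, endothelial markers were 57.9 to 86.8 CPM in D3DMSO and 187 to 258 in D3RA. Their part in the result was not tested.

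Slc38a2, the alanine carrier that amino acid starvation is known to raise, was at 323.3, 318.0 and 366.2 CPM in D0, 474.3, 604.3 and 694.3 in D3DMSO and 520.8, 529.3 and 490.6 in D3RA. It rose over D0 in both (log2 0.8 ± 0.1 SE and 0.62 ± 0.1, limma adjusted p = 5.88e-06 and 5.45e-05). The day 3 treatments overlapped (log2 -0.19, adjusted p = 0.13), a difference that passed without D3DMSO replicate 1 (log2 -0.34, adjusted p = 0.00174). In the day 6 libraries it was at 531.7, 585.3 and 564.1 CPM with DMSO and 679.2, 681.5 and 670.7 with RA, with no overlap. The day 6 difference of log2 0.27 ± 0.1 was called (adjusted p = 0.0278) but lost without D6DMSO replicate 1 (0.0929), D6DMSO replicate 3 (0.0544) or any of the 3 D6RA libraries (0.0545 to 0.0639).

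Slc38a3, a glutamine carrier of liver, kidney and glia, was at 11.4, 13.2 and 12.5 CPM in D0, 8.84, 2.67 and 4.8 in D3DMSO, 1.82, 0.977 and 0.914 in D3RA, 4.03, 3.23 and 4.2 in D6DMSO and 0.695, 0.697 and 0.564 in D6RA. RA libraries were below DMSO libraries at each day, and D0 was above all. RA cells were 4.39-fold lower at day 3 (log2 -1.88 ± 0.33 SE, limma adjusted p = 0.00012) and 5.87-fold lower at day 6 (log2 -2.52 ± 0.33, adjusted p = 4.02e-06). From D0 it fell in D3DMSO (log2 -1.33, adjusted p = 0.00283) and in D3RA (log2 -3.2, adjusted p = 2.41e-07). Slc38a5, its close relative, was also lower with RA at both days (log2 -1.47 and -2.18, adjusted p = 0.00501 and 0.000162), at mean levels of 0.299 to 2.3 CPM. So was Slc38a6, at 3.23 ± 0.311 against 6.47 ± 0.933 CPM at day 3 and 5.74 ± 0.162 against 9.85 ± 0.933 CPM at day 6 (adjusted p = 6.44e-05 and 0.000387).

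The other Slc38a genes differed by less. Slc38a9, the lysosomal arginine carrier that signals to mTORC1, was at 22.1 ± 1.81 CPM in D3DMSO and 15.8 ± 2.54 in D3RA (log2 -0.48, limma adjusted p = 0.0013), and at 21.6 ± 0.328 CPM in D6DMSO and 26.7 ± 1.07 in D6RA (log2 0.31, adjusted p = 0.0238). Its day 6 call was lost without D6DMSO replicate 1 (0.0615), D6DMSO replicate 3 (0.0534), D6RA replicate 1 (0.0842) or D6RA replicate 2 (0.0516). Slc38a10 was log2 -0.19 lower with RA at day 3 (adjusted p = 0.0256) and log2 0.35 higher at day 6 (adjusted p = 0.000387). The day 3 call was lost without D3DMSO replicate 2 (0.0886) or D3RA replicate 2 (0.0764). It was also lost with the day 3 groups fitted alone, without a block (0.0907) or with a replicate block (0.0898). Slc38a7 was at 18.8 ± 2.02 CPM in D6DMSO and 26.6 ± 0.848 in D6RA (log2 0.51, adjusted p = 0.00232) and did not differ by the test at day 3 (adjusted p = 0.814).

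By the fitted values, the Slc6a family held the members with the highest and the lowest log2 difference between the treatments at day 6. The lowest, Slc6a13 at -5.58 ± 0.41 SE, was close to Slc43a3 at -5.39 ± 0.56. By mean CPM the order was reversed, with Slc43a3 60.6-fold lower and Slc6a13 49.4-fold lower. Both rest on few counts in D6RA. Slc6a5, the glycine carrier of glycinergic nerve endings, had 1 count over the 3 D0 libraries, 0 counts in D3DMSO and 8 in D6DMSO. It was at 2.0, 2.28 and 3.65 CPM in D3RA and 51.3, 53.2 and 50.0 in D6RA. Every RA library was thus above every library of the other groups. By pooled counts, D3RA was at least 14.1-fold higher than D3DMSO, counting 3 counts over the group as the floor. D3RA stood 60.8 times over D0 by pooled counts (95% counting interval 10.3 to 2466, which covers counting error only) and 83.9 times by mean CPM. D6RA was 442.8-fold above D6DMSO in mean CPM (log2 8.93 ± 0.56 SE, limma adjusted p = 3.73e-10). That fitted value was 9.65 without D6DMSO replicate 1 and 6.42 on the scale log2(CPM + 0.5).

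Slc6a13, a GABA and taurine carrier of liver and meninges, was at 3.38, 3.62 and 3.03 CPM in D0, 0.967, 0.821 and 1.39 in D3DMSO, 1.0, 0.977 and 1.37 in D3RA, 4.6, 4.33 and 3.89 in D6DMSO and 0.0331, 0.164 and 0.0626 in D6RA. The D6RA libraries were below all others. Their 7 counts against 297 gave a 49.4-fold lower mean (log2 -5.58 ± 0.41, adjusted p = 2.97e-09). Summed neuron markers were 3365 to 3592 CPM in D6RA, where Slc6a5 was highest, and their part in that result was not tested.

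Slc6a9, the glycine carrier that glia and many other cells use, was at 2.77, 2.36 and 3.88 CPM in D0, 13.5, 11.1 and 13.6 in D3DMSO and 6.01, 3.91 and 1.83 in D3RA. It was at 37.1, 38.3 and 38.8 CPM in D6DMSO and 38.2, 38.9 and 42.0 in D6RA. D3DMSO was above D0 and D3RA, and the day 6 groups overlapped above all of these. It rose 4.25-fold from D0 to D3DMSO (log2 2.09 ± 0.27 SE, limma adjusted p = 6.07e-06), and D3RA was 3.26-fold below D3DMSO (log2 -1.79, adjusted p = 2.4e-05). That value was log2 -1.17 without the 3 shallow libraries, from 1 D3RA library. D3RA against D0 (log2 0.3, adjusted p = 0.331) rested on single libraries, since it passed without D3RA replicate 3 (log2 0.73, adjusted p = 0.00329) and turned to log2 -0.05 without D3RA replicate 1. The day 6 treatments did not differ by the test (log2 0.06 ± 0.27, adjusted p = 0.859).

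Slc6a8, the creatine carrier, was at 24.6, 26.8 and 21.7 CPM in D6DMSO and 45.4, 48.3 and 43.8 in D6RA, a 1.88-fold rise without overlap (log2 0.92 ± 0.12 SE, limma adjusted p = 5.1e-06). It lay at 17.5 to 24.6 CPM in the 9 libraries of D0 and day 3, whose groups overlapped (adjusted p = 0.391 between treatments). Slc6a6, the taurine carrier, was at 215.9, 206.9 and 236.4 CPM in D0, 207.5, 272.0 and 303.6 in D3DMSO, 175.6, 156.7 and 200.1 in D3RA, 251.6, 297.1 and 282.9 in D6DMSO and 246.1, 268.3 and 260.4 in D6RA. The day 3 treatments did not overlap (log2 -0.55 ± 0.12, adjusted p = 0.000708), and those of day 6 did (adjusted p = 0.475). Its fall from D0 to D3RA (log2 -0.31, adjusted p = 0.0261) was not called after removal of D0 replicate 3 (0.0975), D3RA replicate 1 (0.0574) or D3RA replicate 2 (0.125). From D0 to D3DMSO it did not pass (adjusted p = 0.102), but did without D3DMSO replicate 1 (0.00355).

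Slc6a17, a carrier of synaptic vesicles, was at 2.07, 1.23 and 2.79 CPM in D3DMSO and 6.28, 4.23 and 5.02 in D3RA, with D0 at 1.85, 3.3 and 3.12. D3RA was above both without overlap, 2.55-fold over D3DMSO (log2 1.39 ± 0.28 SE, limma adjusted p = 0.00037) and 1.88-fold over D0 (adjusted p = 0.00608). Its day 6 levels were 4.47, 4.7 and 5.51 CPM with DMSO and 6.26, 7.74 and 7.51 with RA, a difference of log2 0.55 ± 0.28 that did not pass (adjusted p = 0.0939) but did with voom weights (0.00152). Slc6a15, a carrier of branched-chain amino acids and proline, fell from 29.8 ± 3.07 CPM in D0 to 15.4 ± 4.02 in D3DMSO and 11.9 ± 0.82 in D3RA (adjusted p = 7.38e-05 and 1.68e-06), with no called difference between treatments at either day (0.0772 and 0.185). Slc6a20b had 5 to 13 counts per group up to day 3 and was at 2.15 ± 0.569 and 1.96 ± 0.0622 CPM in D6DMSO and D6RA (adjusted p = 0.874).

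Both measured Slc36a genes were highest in D6RA. Slc36a1 encodes a proton-coupled carrier of small amino acids found on lysosomes and other membranes, and Slc36a4 a carrier of proline and tryptophan. Slc36a4 was at 15.3, 16.0 and 14.5 CPM in D0, 18.1, 18.5 and 20.8 in D3DMSO, 25.8, 26.1 and 20.6 in D3RA, 18.3, 18.1 and 16.5 in D6DMSO and 46.1, 43.1 and 45.0 in D6RA. Only D3RA and D3DMSO overlapped among the treatment pairs. The day 6 rise was 2.54-fold (log2 1.34 ± 0.1 SE, limma adjusted p = 5.32e-09). At day 3 RA cells were log2 0.33 higher (adjusted p = 0.0103), a call lost when the compared groups were fitted alone, without a block (0.0856) or with the replicate number as a block (0.0861). D3RA was above D0 (log2 0.66, adjusted p = 2.81e-05). The rise from D0 to D3DMSO (log2 0.32, adjusted p = 0.014) was not called after removal of D0 replicate 3 (0.0521) or D3DMSO replicate 3 (0.0613). Slc36a1 was at 6.14 ± 0.563 CPM in D6DMSO and 22.1 ± 0.529 in D6RA, 3.59-fold higher (adjusted p = 7.38e-08). At day 3 its libraries overlapped, and the lower RA value (log2 -0.46, adjusted p = 0.0312) was lost without D3DMSO replicate 2 (0.147), D3DMSO replicate 3 (0.0894), D3RA replicate 2 (0.0562) or D3RA replicate 3 (0.113). The call was also lost with the day 3 groups fitted alone, without a block (0.175) or with a replicate block (0.18). Without the 3 shallow libraries the difference was log2 -0.08.

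The 3 Slc43a genes, of which Slc43a1 and Slc43a2 encode sodium-independent carriers of large neutral amino acids, differed between treatments at day 6 and not by the test at day 3 (limma adjusted p = 0.264, 0.333 and 0.319). Slc43a2 was at 7.1, 8.11 and 7.79 CPM in D6DMSO and 17.5, 19.2 and 19.3 in D6RA, 2.44-fold higher without overlap (log2 1.28 ± 0.18 SE, adjusted p = 7.83e-06). At day 3 it was at 6.21, 9.03 and 9.76 CPM with DMSO and 5.83, 6.51 and 9.14 with RA, below the 11.3, 11.3 and 10.8 of D0. The fall to D3DMSO (log2 -0.44, adjusted p = 0.0488) was lost without any of the 3 D0 libraries (0.0755 to 0.103) or without D3DMSO replicate 1 (0.246), while that to D3RA was log2 -0.64 (adjusted p = 0.00449). Between the day 3 treatments a difference appeared without D3DMSO replicate 1 (log2 -0.4, adjusted p = 0.0495).

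Slc43a1 was at 13.9, 12.0 and 11.3 CPM in D0, 24.6, 18.9 and 20.9 in D3DMSO, 27.0, 21.8 and 22.8 in D3RA, 25.2, 28.3 and 27.8 in D6DMSO and 10.3, 11.3 and 10.9 in D6RA. D0 and D6RA were below the other 3 groups. The day 6 gap was 2.5-fold (log2 -1.32 ± 0.12 SE, limma adjusted p = 5.26e-08), and the rises over D0 were log2 0.79 and 0.95 (adjusted p = 3.87e-05 and 2.89e-06). Slc43a3, which carries purine bases rather than amino acids, had 104 counts in D6DMSO and 2 in D6RA. It was 64.8-fold lower in D6RA by pooled counts (95% counting interval 17.5 to 542.1) and 60.6-fold lower by mean CPM. In the earlier groups its mean lay between 0.964 and 1.61 CPM. It is a near neighbour of Slc43a1 on chromosome 2, with 1 protein-coding gene between them, and both were lower in D6RA.

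Between day 3 and day 6 the RA minus DMSO difference shifted upwards for most members. The test of the difference itself, the day 6 difference less the day 3 difference, was called higher for 22 members and lower for 5, 73.0% of members against 48.5% of all genes called (25.4% higher, 23.1% lower). Its median was 0.79 on the log2 scale, and 0.04 over all genes. Of the 17 members lower with RA at day 3, 7 were also lower at day 6 (Slc1a3, Slc1a5, Slc38a3, Slc38a5, Slc38a6, Slc7a3 and Slc7a7), 6 were not called (Slc1a4, Slc3a2, Slc6a6, Slc6a9, Slc7a1 and Slc7a5) and 4 were higher (Slc36a1, Slc38a10, Slc38a9 and Slc7a14). Of the 5 members higher with RA at day 3, 4 were higher at both days (Slc1a2, Slc36a4, Slc38a1 and Slc6a5), and Slc6a17 was not called at day 6. Of the 15 with no call at day 3, 6 were higher at day 6, among them Slc38a2, Slc6a8 and Slc7a11, and 5 lower (Slc38a4, Slc43a1, Slc43a3, Slc6a13 and Slc7a2). For Slc1a4, Slc7a5 and Slc3a2 the shift was log2 3.17 ± 0.1, 2.96 ± 0.14 and 1.86 ± 0.1 (SE, limma adjusted p = 1.01e-12, 4.92e-11 and 4.44e-10). The libraries of each day were compared within the day, and the shift carries whatever differed between the day 3 and day 6 libraries in how they were made.

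**Figure D4:**
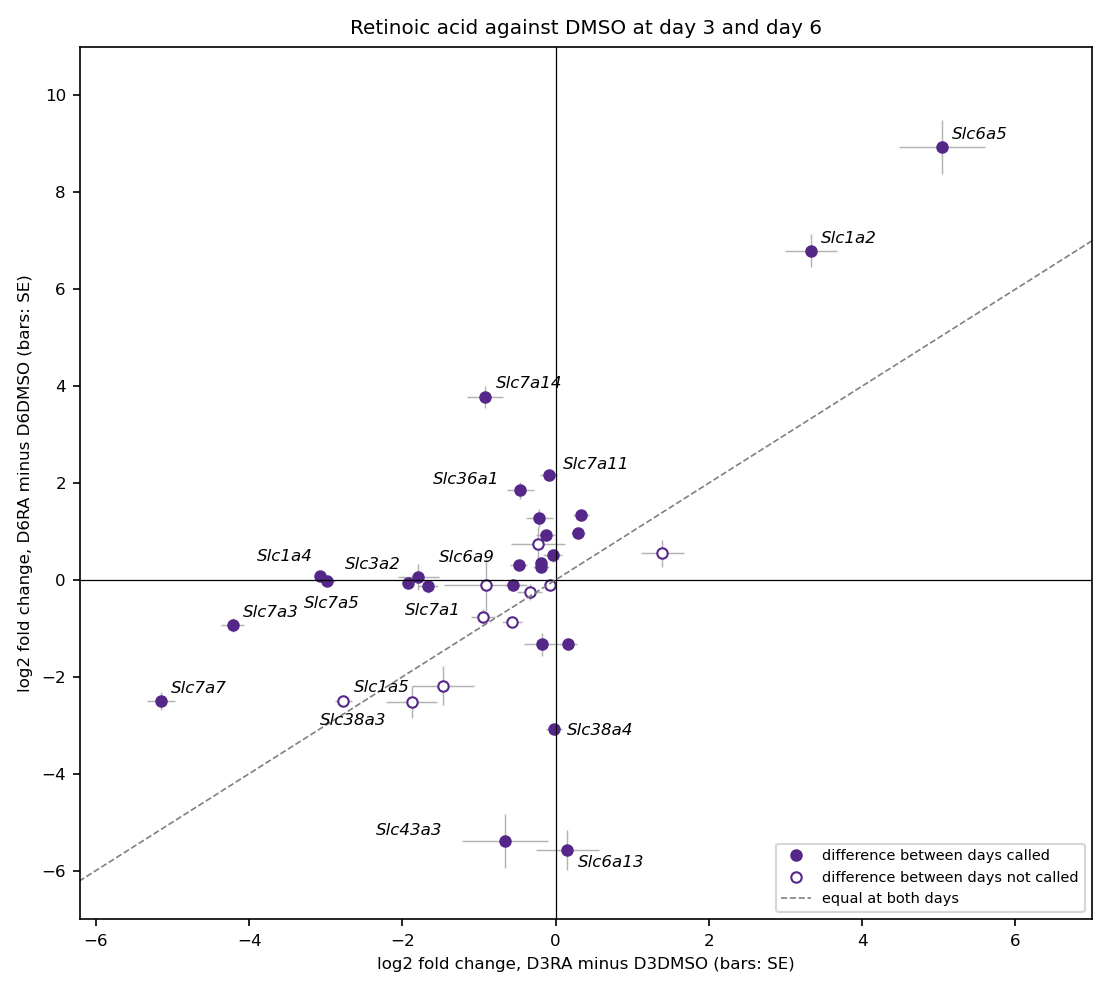
Log2 fold change of RA against DMSO at day 3 (x axis) and day 6 (y axis) for 36 of the 37 transporter genes, with the SE from limma as bars. Filled points had a called difference between the days, and the dashed line marks equal differences. Slc1a4, Slc7a5, Slc3a2, Slc6a9 and Slc7a1 lie left of 0 on the x axis and near 0 on the y axis, and Slc38a4 lies near 0 on the x axis and -3.08 on the y axis.

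Genes around the carriers were read from 4 lists. Their counts stand against all genes called, 56.1% from D0 to D3DMSO, 68.9% from D0 to D3RA, 62.1% between the treatments at day 3 and 65.8% at day 6. The amino acid response list (20 genes tied to ATF4, all measured) followed the day 3 pattern of the heavy chain: 17 rose and 0 fell from D0 to D3DMSO, 1 rose and 14 fell from D0 to D3RA, and 19 were lower and 0 higher in D3RA than in D3DMSO, with a median log2 of -2.12. Chac1, a glutathione-cleaving enzyme, rose from 9.07 ± 0.716 CPM in D0 to 90.5 ± 18.8 in D3DMSO and was at 6.13 ± 1.82 in D3RA. Ddit4, an mTORC1 inhibitor, was at 132.9 ± 29.1 CPM in D3DMSO and 8.45 ± 2.04 in D3RA (log2 -3.95, limma adjusted p = 9.6e-12). Trib3, a pseudokinase, rose from 6.02 ± 1.2 CPM in D0 to 57.5 ± 17.2 in D3DMSO, and Eif4ebp1, a translation inhibitor, fell from 146.2 ± 6.04 to 33.6 ± 2.03 CPM in D3RA. Cebpg was the 1 gene that rose from D0 to D3RA, and 3 rose without the 3 shallow libraries, on 1 D3RA library. At day 6, 3 of the 20 were higher with RA (Vldlr and Ddit4 at log2 0.6 and 0.45 among them) and 10 lower, led by Atf3 (15.8 ± 0.886 against 64.8 ± 6.16 CPM) and Trib3 (30.4 ± 0.677 against 99.7 ± 8.6 CPM). In all, 65.0% of the list was called. The 3 higher fell to 1 without D6DMSO replicate 3, D6RA replicate 2 or D6RA replicate 3, under quantile normalization and without the variance trend. Fitted with the day 6 groups alone, 16 were lower. The list's summed level was 851 to 965 CPM in D3RA against 3139 to 3695 in D3DMSO, and 2523 to 2622 in D6RA against 3591 to 3645 in D6DMSO. This list and the lists below were chosen with earlier results of these data known, so their direction is a description.

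Of the mTORC1 sensing genes, 28 of 29 were measured, and 7 were higher and 13 lower in D3RA than in D3DMSO, or 71.4% called, and 12 higher and 7 lower in D6RA than in D6DMSO, or 67.9%. The 7 higher at day 3 were 4 without D3RA replicate 2 or with the compared groups alone, and 3 without the 3 shallow libraries. Sesn2, a leucine sensor that also stands on the ATF4 list and so counts in both, was at 36.9 ± 2.69 CPM in D0, 100.2 ± 7.19 in D3DMSO and 15.2 ± 2.92 in D3RA (log2 -2.72 between treatments, limma adjusted p = 3.78e-12). Castor1, an arginine sensor, was lower with RA at both days, at 0.903 ± 0.414 against 13.3 ± 3.33 CPM at day 3 and 0.539 ± 0.311 against 4.5 ± 0.401 CPM at day 6. Its relative Castor2 was higher with RA at day 6 (40.5 ± 1.37 against 20.8 ± 0.771 CPM, adjusted p = 0.000151). Lamtor1 and Mlst8, parts of the lysosomal anchor and of the kinase complex, were log2 0.55 and 0.59 higher in D3RA than in D3DMSO.

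Among other carriers of amino acids and peptides (17 of 21 measured), 5 were higher and 6 lower with RA at day 3 (64.7% called), and 10 higher and 3 lower at day 6 (76.5%). The 5 higher at day 3 were 3 without the 3 shallow libraries. Those with the highest day 6 log2 differences load synaptic vesicles. Slc17a6, for glutamate, was at 31.7 ± 4.5 CPM in D6RA against 0.0871 ± 0.116 in D6DMSO (log2 8.83, limma adjusted p = 4.62e-09). Slc32a1, for GABA and glycine, was at 16.1 ± 1.76 against 0.101 ± 0.0265 CPM (log2 7.05, adjusted p = 9.01e-09). Slc16a10, a carrier of aromatic amino acids, was lower with RA at both days, at 1.99 ± 0.182 against 22.4 ± 2.69 CPM at day 3 and 2.28 ± 0.0979 against 10.2 ± 0.776 CPM at day 6, as Slc7a7 was. In glutamate, GABA and glycine metabolism (16 of 16 measured), 4 genes were higher and 6 lower at day 3 (62.5% called) and 6 higher and 9 lower at day 6 (93.8%). Gad1, which makes GABA, was at 44.5 ± 2.56 CPM in D6RA and 1.58 ± 0.0847 in D6DMSO, and Abat, which breaks GABA down, at 52.6 ± 2.0 and 2.43 ± 0.361 CPM. Shmt2, the mitochondrial serine and glycine enzyme that also stands on the ATF4 list, was lower with RA at day 3 (70.3 ± 4.4 against 275.7 ± 13.2 CPM) and at day 6 (179.7 ± 4.26 against 324.0 ± 32.3 CPM).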

How the data were processed

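RNA values of 15 libraries were used, 3 in each of 5 groups named from the sample titles; the 18 chromatin samples were not analysed here. Libraries were stranded, depleted of ribosomal RNA and sequenced single end, per the labels' protocols. STAR 2.6.0c, featureCounts and limma with the mm9 genome are among the tools listed; this is per the submitters' processing notes, and the tool that wrote the table is not given in the sources used here. The deposited table holds log2 values of 14717 genes, of which 14228 had a symbol, with a lowest value of 1.0. Taking off a constant per library and 0.5 counts gave whole numbers within 0.05 for 100% of values. These recovered counts, divided by library sizes that follow the deposited scale, gave CPM. The limma 3.58.1 fit (R 4.3.3) used the log2 values as deposited, with a variance trend and 1 coefficient per group, and Benjamini-Hochberg adjustment over all genes at 0.05. Nothing states that the 3 samples of a group came from separate cultures, so p-values cover the spread between the deposited samples alone, and that spread may be technical.

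Full statistics are given for 25 members: a panel of 16, and per comparison, among called members reaching 2 CPM in 1 group, the 4 largest log2 changes in each direction. List genes are the 2 largest called changes in each direction. Another 11 members have their levels or calls, and 1 member enters the counts but is not reported here by name. The members, panel, lists and motif were chosen with earlier results of these data known. Alternatives were other scalings, filters, weights, samples in the fit, the replicate number as a block, and removal of single libraries. Same-numbered D3DMSO and D3RA libraries deviated together (r = 0.33, 0.11 and 0.165 over genes), so their numbers were taken as pairs from the data; no label says what a number marks. Leaving out the 3 libraries under 5 M, a block with the day 3 groups alone, and fitting D0 and day 3 alone were added after the data were seen. The scripts were tested on simulated data. Counting intervals and floors cover counting error only. Tables used Python 3.11.15 and pandas 2.3.3.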

Additional observations from a re-analysis of the deposited data

Results flagged for a closer look

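By limma's test of the difference itself, RA minus DMSO was not the same at day 6 as at day 3 for 27 of the 37 members. That is 73.0% of members, against 48.5% of all genes called. The test carries whatever differed between the day 3 and day 6 libraries in how they were made. The values, given for 26 of these members, are the day 6 log2 difference less the day 3 one. Of the heavy chain and its partners, Slc3a2 had 1.86, Slc7a5 2.96, Slc7a7 2.65 and Slc7a11 2.26. The cationic group had 1.54 for Slc7a1, 3.28 for Slc7a3, -1.15 for Slc7a2 and 4.71 for Slc7a14. In Slc1a, Slc1a4 had 3.17 and Slc1a2 had 3.46. In Slc38a, the values were 0.67 for Slc38a1, 0.46 for Slc38a2, -3.06 for Slc38a4, 0.54 for Slc38a7, 0.79 for Slc38a9 and 0.54 for Slc38a10. The call of Slc38a7 was lost without D3DMSO replicate 3 (adjusted p = 0.0575) or D6DMSO replicate 1 (0.0629) and under quantile normalization (0.0557). The Slc38a2 value was log2 0.41 without the 3 shallow libraries, which leaves 1 D3RA library. In Slc6a, they were 3.89 for Slc6a5, 0.45 for Slc6a6, 1.04 for Slc6a8, 1.85 for Slc6a9 and -5.73 for Slc6a13. The Slc6a5 value includes a group with 0 counts and so depends on the count added by the authors. The call of Slc6a6 was lost without any of 8 single libraries, with log2 values of 0.33 to 0.46 (adjusted p = 0.0505 to 0.0977). It was also lost under median-of-ratios scaling (0.0509), without the variance trend (0.0727) and with the compared groups alone (0.0504). Slc36a1 had 2.31 and Slc36a4 1.01, and Slc43a1 had -1.48, Slc43a2 1.49 and Slc43a3 -4.73. The Slc43a3 value rests on 2 counts in D6RA. The order of RA and DMSO turned between the days, with a call on both, for Slc7a14, Slc36a1, Slc38a9 and Slc38a10. For 3 of these 4, 1 of the calls was lost on removal of single libraries: Slc36a1 at day 3 (adjusted p = 0.0562 to 0.147), Slc38a10 at day 3 (0.0764 and 0.0886) and Slc38a9 at day 6 (0.0516 to 0.0842). The day 3 call of Slc7a14 was lost without the 3 shallow libraries, where D3RA is 1 library (0.0581).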

How the results depend on the processing

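Of 128 called differences of single members, 110 kept their call and direction under every alternative tried, and 18 lost the call under at least 1, none with a change of sign. With at least 5 CPM asked for in 3 libraries, which left 12552 genes, the members called lower from D3RA to D6RA were 5 in place of 8, and those with a lower difference between days 3 in place of 5, since low members were not tested. Quantile normalization gave 13 members higher and 15 lower in D6RA against D6DMSO, in place of 14 and 12. It moved the median log2 of all genes by -0.0883 in that comparison, and by -0.129 from D3RA to D6RA. Removing single libraries of the compared groups gave 15 to 17 members higher and 9 to 11 lower in D3DMSO against D0, 8 to 11 and 16 to 18 in D3RA against D0, 4 to 5 and 16 to 19 in D3RA against D3DMSO, 12 to 14 and 12 in D6RA against D6DMSO, and 20 to 23 and 5 to 7 in the difference between days.

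Some uncalled values changed sign, and the cause was not tested. With quantile normalization, log2 values were -0.07 for Slc7a14 (D3DMSO against D0) and -0.03 for Slc1a4 and -0.06 for Slc6a9 (D6RA against D6DMSO). Without the 3 shallow libraries, which leaves 1 D3RA library, they were -0.09 for Slc7a1 (D3RA against D0), and 0.37 for Slc1a6, 0.05 for Slc38a4 and -0.24 for Slc6a13 (D3RA against D3DMSO). Slc7a1 was at -0.03 with voom weights. Removing single libraries gave, for D3DMSO against D0, -0.37 to 0.37 for Slc6a5, -0.16 to 0.07 for Slc6a8 and -0.03 to 0.17 for Slc7a14. For D3RA against D0, it gave -0.05 to 0.73 for Slc6a9 and -0.06 to 0.12 for Slc7a1. For D3RA against D3DMSO, it gave -0.5 to 0.22 for Slc1a6, -0.15 to 0.05 for Slc38a4, -0.04 to 0.34 for Slc6a13 and -0.22 to 0.0 for Slc7a11. For D6RA against D6DMSO, it gave -0.09 to 0.01 for Slc7a5.

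Same-numbered libraries were taken as pairs for D3DMSO against D3RA alone. D0 and D3DMSO deviated together by number to a like degree (r = 0.189, 0.097 and 0.292), but no block fit of those groups alone was made. Over all groups, 7 of 30 same-numbered pairs had deviations correlated above 0.1 (range -0.221 to 0.33), all among D0 and day 3 groups, and 9 of 15 libraries correlated best with their own number. D3DMSO and D3RA were also fitted alone with the number as a block, chosen after seeing the data. In that fit 4 members were higher and 15 lower in D3RA. Slc36a1, Slc36a4 and Slc38a10 lost their calls there, and no other call of a member changed. The same calls were lost with these groups fitted alone without the block (limma adjusted p = 0.175, 0.0856 and 0.0907). Their loss was thus not particular to the block. With the block in all 5 groups, the members called higher and lower were 17 and 10 in D3DMSO against D0, 8 and 18 in D3RA against D0, 5 and 17 in D3RA against D3DMSO, 14 and 12 in D6RA against D6DMSO, 15 and 7 in D6DMSO against D3DMSO, 26 and 8 in D6RA against D3RA, and 22 and 5 in the difference between days. Depth limits low members most: Slc6a5, Slc6a20b and Slc43a3 had groups with 0 to 5 counts over 3 libraries, where fitted values depend on the added count. On the scale log2(CPM + 0.5), the D6RA minus D6DMSO values were -1.93 for Slc43a3 and -3.03 for Slc6a13, and Slc6a5 was at 2.62 in D3RA minus D3DMSO.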
